A study of Mus musculus with 4 samples.

Results

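The genes described here encode the killing machinery and the main secreted cytokine of cytotoxic lymphocytes: the granzymes Gzma, Gzmb, Gzmc, Gzmd and Gzmf, the pore-forming protein perforin (Prf1), the granule genes Nkg7 and Ctsw, and interferon gamma (Ifng). They were taken by symbol from the gene table, and all 9 were among the 12584 genes measured. Their levels were followed in 34447 single cells of 4 libraries, mainly in the natural killer (NK) cells.

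Each library was made from CD45+ live cells sorted from 3 pooled tumours, with 1 library per group. All tumours were YUMM1.7-OVA RTT, a mouse melanoma line that carries the model antigen ovalbumin and no longer responds to targeted therapy, grown in Rag2-/- mice. All mice received ovalbumin-specific OT-1 CD8+ T cells by adoptive transfer (ACT) on day 7, and tumours were taken on day 10, 72 h later. CTRL tumours carried an mCherry control vector. IRF3/7 tumours carried vectors that drive the interferon regulatory factors IRF3 and IRF7 from the viral SFFV promoter in the cancer cells, which were sorted in bulk rather than cloned. COX2i tumours were the mCherry line in mice given celecoxib, an inhibitor of the prostaglandin-producing enzyme COX2. COX2i + 5-AZA tumours were the same line in mice given celecoxib and the DNA methyltransferase inhibitor 5-azacytidine. Rag2-/- mice make no T or B cells of their own and keep NK cells, so T cells in these tumours derive from the transfer. The ages of the mice are not in the labels.

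NK cells kill by releasing granules onto a target cell. Perforin opens the target membrane, and granzymes, which are serine proteases, enter and cut proteins of the target, with Gzma and Gzmb as the best studied members. Interferon gamma is secreted in parallel and acts on macrophages, dendritic cells and tumour cells.

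Cell classes were those of the deposited annotation. The libraries held 8953 cells in CTRL, 6329 in IRF3/7, 9133 in COX2i and 10032 in COX2i + 5-AZA, with between 26356819 and 78722763 unique molecular identifiers (UMIs, 1 per counted molecule) in a library and a median of 3168 to 7502 UMIs per cell. NK cells numbered 11 in CTRL, 568 in IRF3/7, 50 in COX2i and 437 in COX2i + 5-AZA. All 11 NK marker genes on the list used were above 0 in the NK class of every library. A UMI of Ncr1, Klrb1c, Klre1 or Klrd1, which encode NK receptors, was found in 10 of 11, 564 of 568, 46 of 50 and 417 of 437 of these cells in the same order. Of the 8 genes on the CD8+ T cell list, 6, 2, 4 and 1 had no UMI in the NK class of these libraries. Cd8a was at 0 in each, and the list summed to 5, 593, 30 and 313 UMIs. At least 1 UMI of Cd8a, Cd8b1, Trac, Cd3g, Cd3e or Cd3d was present in 0 of 11, 64 of 568, 4 of 50 and 32 of 437 NK cells. Trbc2 and Lat of the list were not part of this count. T cells of the class T_CD8 numbered 0, 8, 1 and 7. The single T_CD8 cell of COX2i had no UMI of Trac, Cd8a or Cd8b1 but had UMIs of the other 5 of 8 genes on the CD8+ T cell list. Of 29259 droplet barcodes, 4830 (16.5%) were used by cells of more than one library, which the pooling of the 4 libraries by probe barcode allows, and 0 full cell names were shared.

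Gzmb, Gzmc, Gzmd and Gzmf lie in a cluster on chromosome 14, on the minus strand and within 144.635 kb, together with Gzme and Gzmg. Gzmg lies between Gzmf and Gzmd. In GRCm38, the genome of the probe set (mm10), Gzmb spans chr14:56258838-56262260, Gzmc chr14:56231441-56234656, Gzmf chr14:56205263-56211417 and Gzmd chr14:56129556-56132608. Gzma lies apart on the minus strand of chr13:113093825-113100981, Prf1 on the plus strand of chr10:61297833-61304680 and Ifng on the plus strand of the same chromosome at chr10:118441046-118445892. Nkg7 spans chr7:43437073-43438249 on the plus strand and Ctsw chr19:5465043-5468507 on the minus strand. RefSeq promoter windows (GRCm38.p6) matched 8 of 9 members, all except Ctsw.

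The 250 bases before the RefSeq start of the 4 clustered members are shown because their transcripts fell into different patterns across NK cells, as described further on. Each is given 5′ to 3′ on the minus strand: Gzmb at chr14:56262335-56262584, Gzmc at chr14:56234658-56234907, Gzmd at chr14:56132594-56132843 and Gzmf at chr14:56211408-56211657. Capitals mark matches on either strand to the RUNX core TGTGGT, the AP-1 site TGANTCA, the cyclic AMP response element (CRE) TGACGTCA and the T-box core GGTGTGA, none of which overlapped.
Gzmb: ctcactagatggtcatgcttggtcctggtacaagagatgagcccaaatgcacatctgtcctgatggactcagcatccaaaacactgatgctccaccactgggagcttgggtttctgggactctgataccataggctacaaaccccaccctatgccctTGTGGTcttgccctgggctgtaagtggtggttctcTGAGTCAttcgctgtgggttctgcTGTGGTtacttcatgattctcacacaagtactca
Gzmc: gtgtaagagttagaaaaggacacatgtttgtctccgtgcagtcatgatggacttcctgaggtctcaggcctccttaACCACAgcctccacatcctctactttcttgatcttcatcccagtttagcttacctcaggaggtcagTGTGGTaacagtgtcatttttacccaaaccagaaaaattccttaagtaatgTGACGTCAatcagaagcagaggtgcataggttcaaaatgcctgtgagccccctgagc
Gzmd: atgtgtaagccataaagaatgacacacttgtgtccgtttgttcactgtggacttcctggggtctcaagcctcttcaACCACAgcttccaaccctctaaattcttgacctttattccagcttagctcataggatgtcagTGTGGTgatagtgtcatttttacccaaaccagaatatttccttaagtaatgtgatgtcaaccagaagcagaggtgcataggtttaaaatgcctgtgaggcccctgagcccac
Gzmf: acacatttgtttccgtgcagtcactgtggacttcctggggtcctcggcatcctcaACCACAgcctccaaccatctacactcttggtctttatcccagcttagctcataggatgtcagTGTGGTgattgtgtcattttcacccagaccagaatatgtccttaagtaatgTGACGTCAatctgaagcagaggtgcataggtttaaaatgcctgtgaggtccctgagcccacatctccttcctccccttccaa

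RUNX cores were found at 2 places in each of these 4 windows, and 14.0% of all 32851 windows of the same length held at least 1. Only Gzmb had an AP-1 match, 58 bases before the start (6.75% of all windows). The CRE was found in Gzmc, 57 bases before the start, and in Gzmf, 82 bases before it, but not in Gzmd or Gzmb (1.55% of all windows). No T-box match was found in these 4, while Nkg7 had 1 at 13 bases before its start (3.33% of all windows). The run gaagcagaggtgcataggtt, which begins 45 bases before the Gzmc start, was shared by Gzmc, Gzmd, Gzmf, Gzme and Gzmg and was in no other of the 32851 windows, Gzmb included. These are letter matches and not measured binding sites.

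Over the whole aligned window, Gzmc was 80.5% identical to Gzmd and 70.2% to Gzmf, whereas Gzmb was 47.5% identical to Gzmc. In transcripts the order differed, with 83.1% identity between Gzmf and Gzmd, 68.8% between Gzmc and Gzmd and 47.5% between Gzmb and Gzmc. Gzmd was 90.04% identical to Gzme, with a longest common run of 96 bases. Whether a probe for Gzmd or Gzmf also binds such a near-identical copy was not checked, since probe sequences were not used here, and the values of these genes are uncertain to that extent.

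Transcripts of all 9 genes were more abundant in the CD45+ cells of IRF3/7, COX2i and COX2i + 5-AZA tumours than of CTRL tumours. The summed members gave 760 UMIs in CTRL, 80568 in IRF3/7, 7132 in COX2i and 66100 in COX2i + 5-AZA. Per 1000000 UMIs of all cells (CPM), this was 11.2 in CTRL, 3057 in IRF3/7, 90.6 in COX2i and 867 in COX2i + 5-AZA. CTRL was lowest, COX2i was next, and IRF3/7 was highest. Against CTRL the sum was 273-fold higher in IRF3/7 (95% interval 254 to 294), 8.09-fold higher in COX2i (7.51 to 8.73) and 77.4-fold higher in COX2i + 5-AZA (72.1 to 83.3). Adding 5-azacytidine to celecoxib went with a 9.57-fold higher sum (9.34 to 9.80). On the log2 scale these 4 ratios were 8.09, 3.02, 6.27 and 3.26. Over the alternatives run they lay at 8.01 to 9.19, 2.86 to 3.42, 6.12 to 7.33 and 3.10 to 3.91. The highest values came from leaving out the NK cells with most UMIs of a member, 4 of 11 in CTRL. With 1 library per group no test between groups was possible, and the intervals reflect counting error alone and say nothing of variation among tumours.

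Each of the 9 members was at least 2-fold higher in all 4 of these comparisons. The same was true of 10.8% of 12175 genes in IRF3/7 against CTRL, 2.45% of 12182 in COX2i against CTRL, 6.49% of 12266 in COX2i + 5-AZA against CTRL and 6.85% of 12264 in COX2i + 5-AZA against COX2i. The median log2 ratio of the members was 8.36, 2.19, 6.33 and 3.90 in these comparisons, beside −0.29, 0.04, −0.18 and −0.21 over all genes. The first 3 comparisons share the CTRL library, in which Ifng had 7 UMIs and Gzmf had 0.

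NK cells held most of the summed member UMIs: 83.8% in CTRL, 95.3% in IRF3/7, 94.9% in COX2i and 95.4% in COX2i + 5-AZA. Gzmb in CTRL (9.78%) and Ifng in CTRL (42.9%), IRF3/7 (58.5%) and COX2i + 5-AZA (54.2%) were the members with less than 80% in NK cells. NK cells made up 0.123% of the cells in CTRL (exact 95% interval 0.0613 to 0.220), 8.97% in IRF3/7 (8.28 to 9.71), 0.547% in COX2i (0.407 to 0.721) and 4.36% in COX2i + 5-AZA (3.96 to 4.77). Their share of all UMIs was 0.0478%, 7.63%, 0.324% and 2.49%. On the log2 scale, that share alone differed from CTRL by 7.32 in IRF3/7, 2.76 in COX2i and 5.70 in COX2i + 5-AZA, while the summed members differed by 8.09, 3.02 and 6.27. In sums over all cells, more NK cells and more RNA per NK cell cannot be told apart, so levels within NK cells are given next.

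Single genes lay on both sides of the NK share. In IRF3/7 against CTRL, the log2 ratio over all cells was 9.34 for Gzmb and 9.24 for Gzma, above 7.32, and 6.37 for Gzmc and 6.45 for Ctsw, below it. In COX2i against CTRL, Gzmc stood at 3.57, above the 2.76 of the NK share, and the other members with a UMI in CTRL, Gzmb left aside, ran from 1.03 for Gzmd to 2.49 for Prf1. In COX2i + 5-AZA against CTRL, Ctsw was the lowest at 4.53 and Gzma and Gzmb were both at 6.93. For Gzmb, the CTRL level behind these ratios rested on mast cells, with 77 of 92 UMIs, 73 of them in 1 cell, while NK cells held 9. Its ratio of COX2i to CTRL was 2.79 over all cells and 3.21 (2.28 to 4.35) within NK cells. Gzmf had no UMI in any of the 8953 CTRL cells and was at least 2765-fold higher in IRF3/7 (3220 UMIs), at least 63.8-fold higher in COX2i (222 UMIs) and at least 447-fold higher in COX2i + 5-AZA (1508 UMIs), each against 3 counts in the CTRL library.

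**Figure D1:**
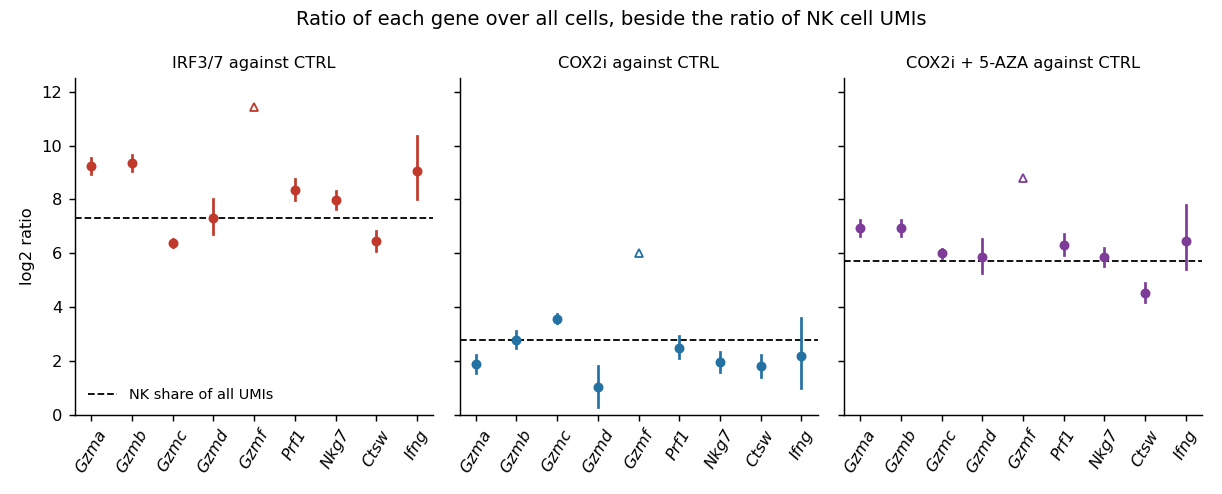
Log2 ratio of CPM over all cells against CTRL (y axis) for each gene (x axis), in a panel each for IRF3/7, COX2i and COX2i + 5-AZA, with lines for the 95% counting intervals. The dashed line is the log2 ratio of the NK share of UMIs (7.32, 2.76 and 5.70), and the open triangle is the lower bound for Gzmf, which had 0 UMIs in CTRL.

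Within NK cells, the libraries differed less and gene by gene. The summed members came to 19628 CPM in the 11 CTRL cells, 38213 in IRF3/7, 26539 in COX2i and 33254 in COX2i + 5-AZA. COX2i was compared with IRF3/7 and COX2i + 5-AZA, and CTRL, with 11 NK cells, is given beside them. The summed level was 1.44-fold higher in IRF3/7 than in COX2i (95% interval 1.40 to 1.48), 1.25-fold higher in COX2i + 5-AZA than in COX2i (1.22 to 1.29) and 1.15-fold higher in IRF3/7 than in COX2i + 5-AZA (1.14 to 1.16). NK cells had a median depth of 2674.5 UMIs in IRF3/7, 3099 in COX2i and 2606 in COX2i + 5-AZA.

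**Figure D2:**
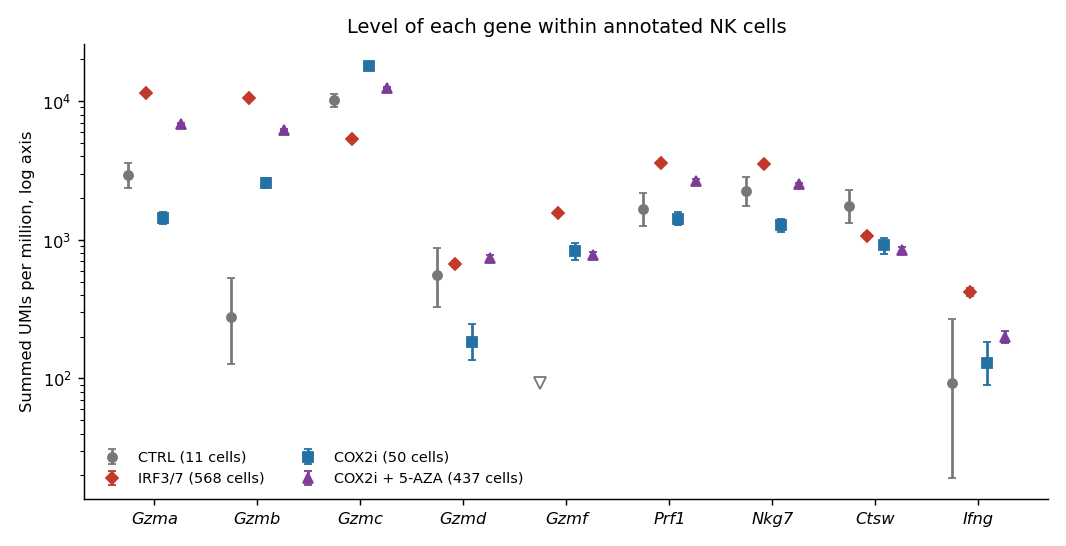
Level of each gene in NK cells (CPM, log axis) in the 4 libraries, with exact Poisson 95% bars for counting error. Gzma and Gzmb are highest in IRF3/7 and Gzmc is highest in COX2i. The open triangle marks Gzmf in CTRL, which had 0 UMIs and is drawn at the 3-count floor of 92.4 CPM.

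Between IRF3/7 and COX2i, 6 of 9 members were at least 2-fold higher in NK cells of IRF3/7 and 1, Gzmc, was at least 2-fold lower, beside 8.36% higher and 7.49% lower of 8703 genes. Of the 6, Gzmd fell to a log2 ratio of 0.91 without the 5% of cells with most UMIs. Gzmf, at 0.93, passed 2-fold under other alternatives. Between COX2i + 5-AZA and COX2i, 3 members were higher and 0 lower by this rule, beside 7.8% and 3.89% of 8867 genes. The 3 became 6 once the NK cell with most UMIs of each member was left out of each library. Those top cells were picked by the members' own counts and made up 6 of 50 NK cells in COX2i but 6 of 437 in COX2i + 5-AZA. The step thus bears harder on COX2i, and the rise to 6 is no support for a difference. The share of all genes was not worked out for it. Between IRF3/7 and COX2i + 5-AZA, 2 were higher and 1 lower, beside 2.51% and 5.94% of 9457 genes. The 2 higher became 1 without those top cells and 0 without the 5% of cells with most UMIs. The median member differed by a log2 ratio of 1.48, 0.90 and 0.49 in these 3 comparisons, against −0.10, −0.03 and −0.08 for all genes. The counts of members were the same with no UMI minimum and with one of 50 in place of 20, but the percent of all genes at least 2-fold lower was 13.9%, 10.3% and 8.93% with none and 4.87%, 2.06% and 3.96% with 50.

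Gzma, the tryptase of the group, had the largest difference of the 9 against COX2i over all NK cells, in IRF3/7 and in COX2i + 5-AZA, an order that Gzmf overturns once the top cells are left out, since 1 COX2i cell held 208 of 210 Gzmf UMIs. Gzma was at 11397 CPM in IRF3/7 NK cells, 6851 in COX2i + 5-AZA, 2927 in CTRL and 1438 in COX2i. IRF3/7 was 7.92-fold above COX2i (95% interval 7.15 to 8.81), and COX2i + 5-AZA was 4.76-fold above it (4.29 to 5.30). On the log2 scale, IRF3/7 against COX2i went from 2.99 to 3.63 with only cells above 2000 detected genes. Counted by cells, 95.1% of NK cells had a Gzma UMI in IRF3/7, 91.1% in COX2i + 5-AZA, 63.6% in CTRL and 60% in COX2i. After each cell was thinned to 1500 UMIs, leaving out shallower cells, these shares were 92.8%, 85.3%, 56.6% and 45.7%, so COX2i kept the lowest share at equal depth. The median NK cell carried 116 Gzma UMIs per 10000 in IRF3/7, 87.1 in COX2i + 5-AZA, 30.5 in CTRL and 11.7 in COX2i.

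Macrophages, which should lack Gzma, served as the background. In the TAM classes, 9.72% of cells in IRF3/7, 0.467% in COX2i and 5.66% in COX2i + 5-AZA had a Gzma UMI, at median depths of 4638.5, 7962.5 and 9479 UMIs. Thinned to 1500 UMIs, these became 3.44%, 0.103% and 1.18%. The NK shares lay far above the background of their own library.

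Gzmb, the granzyme that cleaves after aspartate and activates caspases, followed the order of Gzma among the 3 larger NK groups. It was at 10591 CPM in IRF3/7, 6180 in COX2i + 5-AZA, 2567 in COX2i and 277 in CTRL, where it rested on 9 UMIs. IRF3/7 was 4.13-fold above COX2i (3.82 to 4.47) and COX2i + 5-AZA was 2.41-fold above it (2.22 to 2.61). A Gzmb UMI was present in 99.1% of NK cells in IRF3/7, 94.1% in COX2i + 5-AZA, 68% in COX2i and 45.5% in CTRL. In COX2i, 1 cell held 150 of the 655 Gzmb UMIs.

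Prf1 and Nkg7, a granule membrane protein needed for efficient degranulation, differed by 2.78-fold or less in these comparisons. Prf1 was at 3601 CPM in IRF3/7, 2649 in COX2i + 5-AZA, 1664 in CTRL and 1423 in COX2i, and was 2.53-fold higher in IRF3/7 than in COX2i (2.28 to 2.82). Nkg7 was at 3532, 2508, 2249 and 1270 CPM in the same order, and was 2.78-fold higher in IRF3/7 than in COX2i (2.49 to 3.12). In COX2i + 5-AZA against COX2i they were at 1.86-fold and 1.97-fold, close to the 2-fold rule. On the log2 scale Prf1 went from 0.90 to 1.11 without the top cells, and Nkg7 from 0.98 to at most 1.05, with size factors. The share of NK cells with a UMI was 78% (Prf1) and 88% (Nkg7) in COX2i and 93.8% or more in IRF3/7 and COX2i + 5-AZA.

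Ctsw, a cathepsin of NK and CD8+ T cells, differed least among the libraries with 50 or more NK cells. It was at 1066 CPM in IRF3/7, 909 in COX2i and 847 in COX2i + 5-AZA, and at 1756 (1330 to 2276) in CTRL. IRF3/7 was 1.17-fold above COX2i (1.02 to 1.35), and COX2i + 5-AZA was at 0.931 of COX2i (0.811 to 1.07), an interval that includes no difference.

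Gzmc ran the other way from Gzma and Gzmb. Gzmc, Gzmd and Gzmf belong to the rodent granzymes that strongly stimulated lymphocytes express. Gzmc was at 17795 CPM in COX2i NK cells, 12512 in COX2i + 5-AZA, 10107 in CTRL and 5369 in IRF3/7. IRF3/7 stood at 0.302 of COX2i (0.291 to 0.312) and at 0.429 of COX2i + 5-AZA (0.419 to 0.439), the lowest of the 4 libraries. The latter ratio was −1.22 on the log2 scale and −0.97, short of 2-fold, with only cells above 2000 detected genes. The share of NK cells with a Gzmc UMI was 62% in COX2i, 52.9% in COX2i + 5-AZA and 45.6% in IRF3/7, and after thinning 73.2%, 54.2% and 42.5%.

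A few cells carried much of the Gzmc, Gzmd and Gzmf signal. In COX2i, 4 of 50 NK cells held 50% of the Gzmc UMIs, and 1 cell held 995 of 4540. In IRF3/7 the same portion was held by 29 of 568 cells and in COX2i + 5-AZA by 25 of 437, while for Gzma it took 120 and 85 cells. The single NK cell with most UMIs of each member was therefore left out of each library, a choice made after the data were seen. This took 6 of 50 NK cells in COX2i, 6 of 437 in COX2i + 5-AZA and 8 of 568 in IRF3/7. The cells were picked by these same counts, and of the 3 libraries COX2i lost the largest share of its cells. Gzmc in COX2i then fell from 17795 to 12822 CPM, beside 11831 in COX2i + 5-AZA and 5068 in IRF3/7. Gzmc in IRF3/7 remained the lowest of these 3, and COX2i and COX2i + 5-AZA came close to each other. In CTRL, Gzmc was at 5831 CPM without those cells.

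Gzmd and Gzmf were found in a minority of NK cells. Gzmd was at 670 CPM in IRF3/7, 738 in COX2i + 5-AZA, 555 in CTRL (18 UMIs in 1 cell) and 184 in COX2i. It was 3.64-fold (2.72 to 4.98) and 4.01-fold (3.00 to 5.48) above COX2i in IRF3/7 and COX2i + 5-AZA. On the log2 scale these ratios, 1.86 and 2.00, fell below 2-fold to 0.91 and 0.82 without the 5% of cells with most UMIs, and rose to 2.73 and 2.65 without the top cells, since 29 of the 47 COX2i UMIs were in 1 cell. A Gzmd UMI was present in 12.3%, 13.5% and 10% of NK cells in IRF3/7, COX2i + 5-AZA and COX2i. Gzmf was at 1568 CPM in IRF3/7, 823 in COX2i, 771 in COX2i + 5-AZA and 0 in CTRL. Of the 210 Gzmf UMIs in COX2i, 208 came from 1 cell, and without that and the other highest cells Gzmf was at 10.4 CPM in COX2i, 1190 in IRF3/7 and 607 in COX2i + 5-AZA. The Gzmf level in COX2i was thus that of 1 cell, and the log2 ratio to COX2i went from 0.93 to 6.83 (4.98 to 9.88) in IRF3/7 and from −0.09 to 5.86 (4.00 to 8.91) in COX2i + 5-AZA. Without the 5% of cells with most UMIs, which kept that cell, these ratios fell to 0.16 and −0.66. The IRF3/7 ratio passed 2-fold at 1.21 with only cells above 2000 detected genes and at 1.09 with median-of-ratios size factors.

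Ifng was at 418 CPM in IRF3/7 NK cells (390 to 447), 199 in COX2i + 5-AZA (179 to 220), 129 in COX2i (89.0 to 182) and 92.4 in CTRL (19.1 to 270, from 3 UMIs). It was 3.23-fold higher in IRF3/7 than in COX2i (2.28 to 4.73) and 2.10-fold higher than in COX2i + 5-AZA (1.86 to 2.38). The COX2i + 5-AZA and COX2i levels differed by 1.54-fold (1.08 to 2.27). In COX2i, 1 cell held 12 of the 33 Ifng UMIs. With only cells above 2000 detected genes, the log2 ratio to COX2i went from 1.69 to 2.68 (1.74 to 3.83) in IRF3/7 and from 0.62 to 1.73 (0.78 to 2.88) in COX2i + 5-AZA, where it was 1.02 without the top cells. IRF3/7 against COX2i + 5-AZA went from 1.07 to 0.95, under 2-fold, with either the cells above 2000 genes or without the 5% deepest. An Ifng UMI was seen in 43.1% of NK cells in IRF3/7, 35% in COX2i + 5-AZA and 20% in COX2i, and at equal depth in 32.3%, 22.0% and 12.6%.

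Macrophage transcripts were present in the NK class and moved with the libraries. The monocyte and macrophage marker list summed to 1941 CPM in NK cells of CTRL, 2482 in IRF3/7, 3477 in COX2i and 6205 in COX2i + 5-AZA. The CD8+ T cell list summed to 154, 295, 118 and 165 CPM, against 5238 to 6935 in the T_CD8 class. The part of the myeloid RNA in the within-NK levels was not tested.

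**Figure D3:**
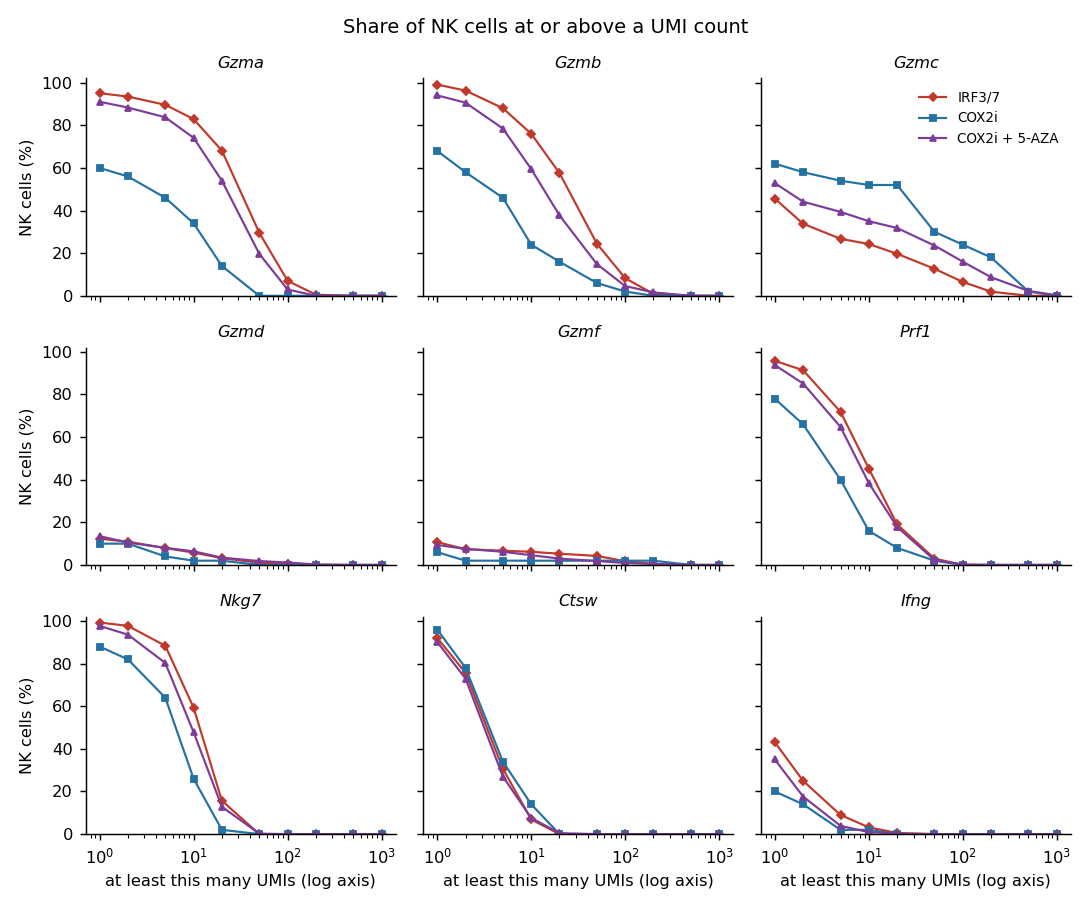
Percent of NK cells (y axis) with at least the number of UMIs on the x axis (log scale) for each gene, in IRF3/7, COX2i and COX2i + 5-AZA. Gzma and Gzmb are spread over most NK cells, whereas Gzmc, Gzmd and Gzmf are held by fewer cells that reach high counts, up to 1149 Gzmc UMIs in 1 COX2i + 5-AZA cell.

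UMIs of Gzmd and Gzmf lay almost entirely in NK cells that also had Gzmc. Of NK cells with a Gzmd UMI, 69 of 70 in IRF3/7, 5 of 5 in COX2i and 59 of 59 in COX2i + 5-AZA also had a Gzmc UMI. For Gzmf the numbers were 51 of 61, 3 of 3 and 37 of 41. Of all NK cells, 45.6%, 62% and 52.9% had a Gzmc UMI, so the few COX2i cells say little. By UMIs, Gzmc-positive cells held 99.9% of Gzmd and 98% of Gzmf in IRF3/7, 100% of both in COX2i, and 100% and 99.3% in COX2i + 5-AZA. Deep cells yield UMIs of every gene more often, and probes that bind a near-identical copy would give such pairs as well, which was not tested.

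NK cells with at least 1500 UMIs were then split by Gzmc, into Gzmc-high cells with 3 or more UMIs and Gzmc-0 cells with none. Gzmc-high cells numbered 175 in IRF3/7, 29 in COX2i and 176 in COX2i + 5-AZA, and Gzmc-0 cells 256, 9 and 146. Cells with 1 or 2 Gzmc UMIs (79, 1 and 33) were left out. The split is a cut through a range of counts, was made after values were seen, and names no cell type. Gzmc-high cells were deeper, with a median of 4785 against 2357.5 UMIs in IRF3/7, 6518 against 1724 in COX2i and 4843.5 against 2374 in COX2i + 5-AZA.

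Gzmc-high and Gzmc-0 cells carried Gzmb, Prf1, Nkg7 and Ctsw at log2 ratios of at most 1.13 in size. The log2 ratio of Gzmc-high over Gzmc-0 was 0.10 in IRF3/7, 1.13 in COX2i and 0.37 in COX2i + 5-AZA for Gzmb, and 0.36, 1.05 and 0.66 for Prf1. Nkg7 stood at −0.15, −0.85 and −0.19. Gzma was lower in Gzmc-high cells, at −0.38, −2.55 and −0.72, and so was Ifng at −1.50, −1.54 and −0.43, though the COX2i value of Ifng (4 UMIs in Gzmc-0 cells) has an interval of −3.24 to 0.53. Gzmd and Gzmf went with Gzmc. In IRF3/7, Gzmd was at 1472 CPM in Gzmc-high and 2.62 in Gzmc-0 cells, and Gzmf at 3195 against 59.0 CPM.

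Ccl5, a chemokine that attracts T cells and myeloid cells and is on the chemokine list, went the opposite way to Gzmc in each library. It was at 146 CPM in Gzmc-high and 4281 in Gzmc-0 cells of IRF3/7, at 106 and 2973 in COX2i, and at 336 and 9388 in COX2i + 5-AZA. The log2 ratio was −4.88 (−5.14 to −4.63), −4.81 (−5.56 to −4.11) and −4.81 (−4.96 to −4.66). In CTRL, 4 Gzmc-high cells had no Ccl5 UMI while 5 Gzmc-0 cells had 118. Of 3224 genes with at least 20 UMIs in each of the 3 libraries, 1 was at least 4-fold lower in Gzmc-high cells in all 3, which was Ccl5, and 1 was at least 4-fold higher, which was Gzmf. In COX2i, Gzmf met this rule through 1 cell with 208 of 210 UMIs, and Gzmd (47 UMIs against 0) missed it because 3 counts over the 9 Gzmc-0 cells bound its log2 ratio only at 0.73 or more. The 4-fold rule was chosen after values were seen.

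NK cells with 3 or more UMIs of both Gzmc and Ccl5 were few. They numbered 14 of 568 in IRF3/7, 2 of 50 in COX2i, 37 of 437 in COX2i + 5-AZA and 0 of 11 in CTRL. Gzmc without Ccl5 at this cut was found in 161, 27, 146 and 4 cells, and Ccl5 without Gzmc in 219, 14, 223 and 4. The CTRL library held too few cells for more than these counts. Ccl5 was singled out from its values in these same cells, so the counts restate the split and do not test it.

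To narrow the difference in depth, the split was repeated in cells of 2000 to 4000 UMIs, for the 2 libraries with enough cells, a range also chosen after the data were seen. Gzmc-high cells remained somewhat deeper within it. It then compared 60 with 134 cells in IRF3/7 (median depth 2930.5 and 2558.5 UMIs) and 65 with 67 in COX2i + 5-AZA (2864 and 2481). Ccl5 was at 440 against 4505 CPM in IRF3/7 (log2 ratio −3.36, −3.70 to −3.03) and at 1190 against 12569 in COX2i + 5-AZA (−3.40, −3.61 to −3.20). Gzmf stayed higher by 4.19 and 3.06, and Gzmd had 100 and 32 UMIs in Gzmc-high cells and 0 in Gzmc-0 cells. Gzma was at −0.37 and −0.06 (−0.16 to 0.03), and Ifng at −0.85 and 0.23 (−0.39 to 0.85). The lower Gzma and Ifng of Gzmc-high cells were thus not seen in COX2i + 5-AZA in this depth range.

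Other genes named after their values were seen did not move alike. Itgam, which encodes the integrin CD11b of mature NK cells and of myeloid cells, had a log2 ratio of −3.48, −1.46 and −1.51 in the full split and −2.86 and −1.97 at matched depth. The cycling gene Mki67 was at 1.74, −0.82 and 0.70 in the full split, and at 3.63 in IRF3/7 and −1.20 in COX2i + 5-AZA in that depth range. The macrophage gene C1qa was at 111 against 388 CPM in IRF3/7, 641 against 350 in COX2i and 1052 against 1155 in COX2i + 5-AZA in the full split. The COX2i difference (8 UMIs in Gzmc-0 cells) lay within counting error. At matched depth, C1qa had a log2 ratio of −2.49 in IRF3/7 and 0.67 (0.07 to 1.30) in COX2i + 5-AZA, while Lyz2, another macrophage gene, had −1.87 and −0.78 (−1.32 to −0.25). The part of macrophage RNA in the Ccl5 difference was not tested.

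**Figure D4:**
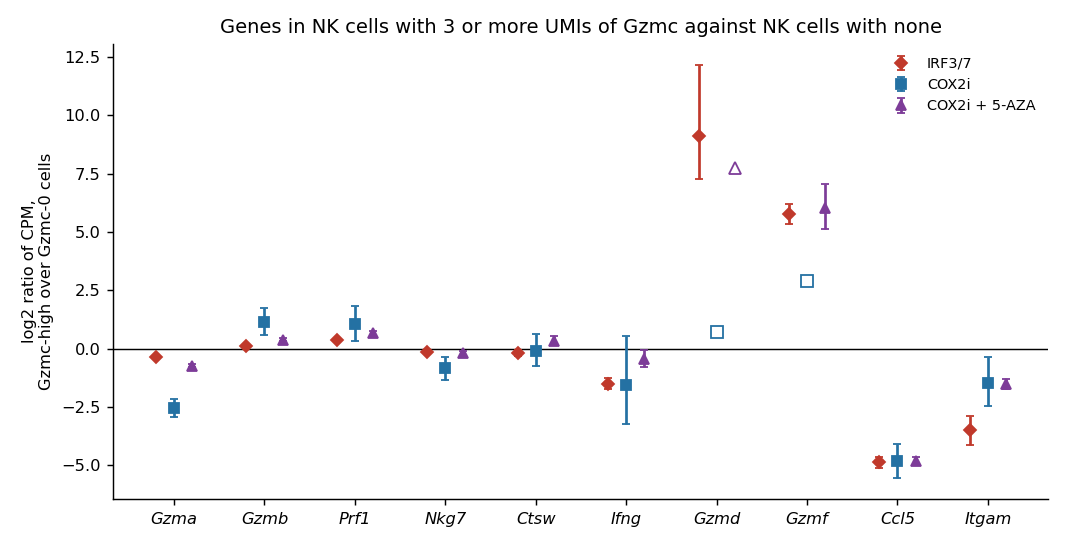
Log2 ratio of CPM in Gzmc-high over Gzmc-0 NK cells (y axis) for members, Ccl5 and Itgam (x axis) in IRF3/7, COX2i and COX2i + 5-AZA, with 95% counting intervals. Open symbols are lower bounds against 3 counts. Ccl5 lies between −4.88 and −4.81 in all 3 libraries, while Gzmd and Gzmf lie above 0.

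T_CD8 cells, the transferred cells, were few but carried much of the Ifng. The 8 T_CD8 cells of IRF3/7 held 569 Ifng UMIs, of which 406 were in 1 cell and 59 in the next, and 7 of 8 had any. The 7 of COX2i + 5-AZA held 263, of which 248 were in 1 cell. T_CD8 cells thus held 39.6% of the Ifng UMIs of IRF3/7 and 37.8% of those of COX2i + 5-AZA, beside 58.5% and 54.2% in NK cells. Without the top cell, 163 and 15 Ifng UMIs were left in them, so in COX2i + 5-AZA the T cell portion was that of 1 cell.

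Gzmb and Nkg7 were seen in all 8 T_CD8 cells of IRF3/7, and Prf1 and Ctsw in 6 each. Gzmb ranged widely, with 3 to 375 UMIs in a cell and 1464 in all, whereas Gzma had 9 UMIs and Gzmc 7 in the same 8 cells. In COX2i + 5-AZA, Gzmb had 105 UMIs in 6 of 7 cells, 70 of them in 1 cell. Prf1 had 75 UMIs in IRF3/7 and 20 in COX2i + 5-AZA, and Nkg7 had 178 and 41. Median depth was 10573.5 UMIs in the T_CD8 cells of IRF3/7 and 2083 in those of COX2i + 5-AZA, so counts per cell cannot be set against each other. The single COX2i cell of the class had 2 Ctsw UMIs and no UMI of another member.

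Mast cells, which store proteases in granules of their own, held Gzmb and hardly any other member. All 5 mast cell markers were above 0 in the Mast class of each library and summed to 47476 to 94412 CPM there, beside 63.7 to 277 in NK cells. In COX2i + 5-AZA, 10 of 23 mast cells had 429 Gzmb UMIs, with 305 in the highest and 27 in the next. In CTRL, 3 of 38 had 77, with 73 in 1 cell, and these made up 83.7% of the 92 Gzmb UMIs of the whole library. The CTRL level of Gzmb over all cells therefore rested on 1 mast cell rather than on NK cells, which held 9 UMIs. In IRF3/7, 160 of 163 UMIs were in 1 of 3 mast cells, and in COX2i 13 mast cells had 1 UMI. No other member exceeded 7 UMIs in the mast cells of a library.

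**Figure D5:**
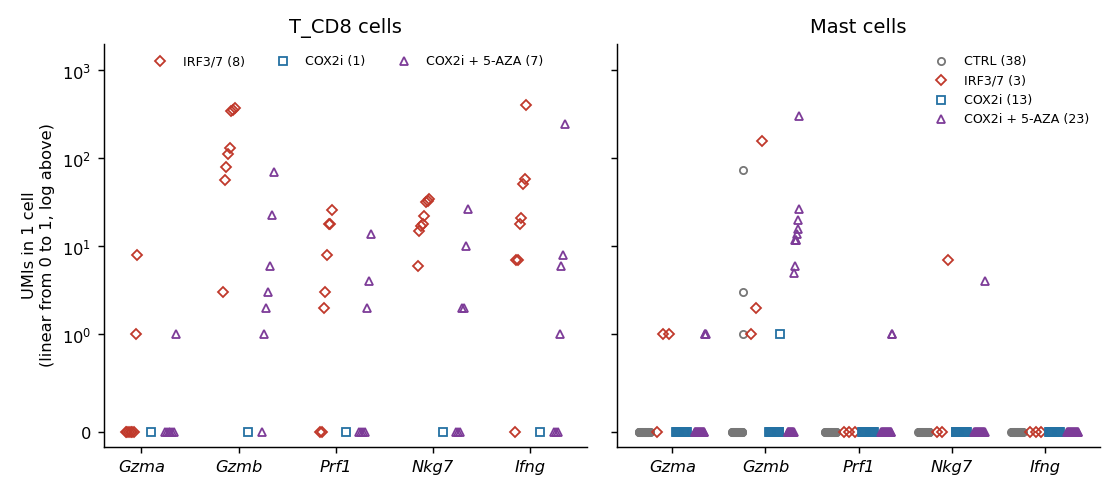
UMIs in each single T_CD8 cell and mast cell (points) for Gzma, Gzmb, Prf1, Nkg7 and Ifng (x axis), on a symmetric log scale that includes 0. Gzmb is present in all 8 T_CD8 cells of IRF3/7 and in 10 of 23 mast cells of COX2i + 5-AZA, and the highest Ifng counts, 406 and 248, are each in 1 T_CD8 cell.

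In the remaining classes, which are myeloid cells and the non-immune Myofibrobl class, members were at a low level that followed the level of the library. The summed members were at 0.681 CPM in CTRL, 52.5 in IRF3/7, 4.57 in COX2i and 29.1 in COX2i + 5-AZA, which was 6.08%, 1.72%, 5.04% and 3.35% of the CPM over all cells of the same library. Any member UMI was seen in 0.472%, 18.8%, 2.28% and 15.5% of these cells. Cells with 10 or more member UMIs numbered 0, 1, 4 and 11, and 0, 1, 4 and 8 of them also had an NK receptor UMI. The 1 cell of IRF3/7 had 1921 UMIs in all, beside a median of 3191 over all cells of these classes, and those of COX2i and COX2i + 5-AZA had a median of 11862.5 and 13059, beside 7514 and 6174.

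Among these classes, the level ran from 0 to 19.5 CPM in CTRL, where the highest, Monocyte_1, rested on 4 UMIs. In IRF3/7 it ran from 15.2 CPM in Myofibrobl to 135 in Monocyte_3, the latter from 2 UMIs, and the largest class, Infl_Mono with 4335 cells, was at 61.5. In COX2i the highest class was cDC2 at 24.5 CPM, where 1 cell held 50 of 82 UMIs. In COX2i + 5-AZA it ran from 2.21 CPM in cDC1 to 90.2 in neutrophils, which had 65 UMIs in 196 cells. Next to 26539 to 38213 CPM in the NK cells of the last 3 libraries, no class other than T_CD8 and Mast came within 100-fold of NK cells.

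Cells that shared a droplet barcode with an NK or T_CD8 cell of another library were compared with the rest of these classes. Any member UMI was seen in 0 of 113 such cells in CTRL (exact upper limit 3.21%), in 21.9% of 32 in IRF3/7 (9.28 to 39.97), 5.52% of 145 in COX2i (2.41 to 10.6) and 12.2% of 74 in COX2i + 5-AZA (5.71 to 21.8). The other cells had 0.478%, 18.8%, 2.23% and 15.5%. These lay within the intervals in 3 libraries and just under the interval in COX2i.

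Genes that work with the members were counted in NK cells from 10 lists, at 20 or more UMIs in the pair of libraries, with comparisons given as IRF3/7 against COX2i, COX2i + 5-AZA against COX2i, and IRF3/7 against COX2i + 5-AZA. Of the other granzymes, 3 of 4, 4 of 4 and 0 of 4 were at least 2-fold higher and 0 lower. Over all genes, 8.36%, 7.8% and 2.51% were higher and 7.49%, 3.89% and 5.94% lower. Gzme, the nearest relative of Gzmd, had 625, 23 and 758 UMIs in IRF3/7, COX2i and COX2i + 5-AZA, and Gzmg had 178, 0 and 123. Gzme and Gzmg are close copies of Gzmd and Gzmf, so their counts may share molecules with them.

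Of 12 genes for granule biogenesis and exocytosis, which load and release granules, 1, 3 and 0 were higher and 0, 0 and 2 lower in the 3 comparisons, where 8.36%, 7.8% and 2.51% of all genes were higher and 7.49%, 3.89% and 5.94% lower. Ctsc, the protease that activates granzymes, was at 705 CPM in IRF3/7, 784 in COX2i and 1603 in COX2i + 5-AZA, and Ctsh at 126, 110 and 327. Ctsc and Ctsh are also expressed by macrophages, whose marker sum was highest in NK cells of COX2i + 5-AZA, and that part was not tested. Of 5 granzyme inhibitors, 1, 1 and 0 were higher, with Serpinb9b at a log2 ratio of 1.95 and 1.63 against COX2i. Of 4 death ligands and related genes, 0, 0 and 1 were higher and 1, 2 and 0 lower, with Lta, a cytokine of the TNF family, at −2.22 and −1.86 against COX2i.

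Chemokines moved in both directions. Of the cytokine and chemokine list, 4 of 5, 3 of 4 and 1 of 5 were higher and 1, 1 and 0 lower, where 8.36%, 7.8% and 2.51% of all genes were higher and 7.49%, 3.89% and 5.94% lower. Ccl5 was at 2255 CPM in IRF3/7, 745 in COX2i and 4180 in COX2i + 5-AZA. Ccl3 and Ccl4, which attract myeloid cells and lymphocytes, were 3.16 and 4.29 higher on the log2 scale in IRF3/7 than in COX2i, where each had 5 UMIs. Xcl1, the chemokine that attracts cDC1, was lower than in COX2i (1250 CPM) in both IRF3/7 (403) and COX2i + 5-AZA (531).

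Regulators, receptors and signalling genes gave the counts below, beside 8.36%, 7.8% and 2.51% of all genes higher and 7.49%, 3.89% and 5.94% lower. In lists this short, a count of 0 or 1 lies near that share. Of 10 regulators of Ifng and killing genes, 2, 1 and 0 were higher and 0 lower, with Prdm1, a transcription factor of effector lymphocytes, at 93 UMIs in IRF3/7, 1 in COX2i and 101 in COX2i + 5-AZA. Of 11 cytokine receptors, 3, 3 and 0 were higher and 1, 0 and 1 lower. Il12rb1, a chain of the receptor for IL-12, was 2.57 and 1.57 higher on the log2 scale than in COX2i, and Il21r was 1 of the lower genes at −1.90 in IRF3/7 against COX2i. Of the activating and inhibitory receptors, 7 of 16, 4 of 15 and 1 of 16 were higher and 0 lower, with the checkpoint receptor Lag3 at 2.46, 1.03 and 1.43. Of 6 genes of the interferon gamma receptor and its signalling, 2, 0 and 0 were higher and 0 lower, with Irf1, an interferon-induced transcription factor, at 1.06 in IRF3/7 against COX2i. Of 7 cell cycle genes, 0 were higher and 1, 0 and 0 lower, with medians of −0.92, −0.68 and −0.21.

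Across 51 sums of UMIs per class and library with 20 or more cells, from 16 classes of which 3 sums were NK cells, the genes with the profile most like the mean of the members were Sh2d2a (Pearson r of log2(CPM + 1) 0.966), Il2rb (0.957), Gimap3 (0.952), Trbc1 (0.948) and Txk (0.944). Il2rb encodes a receptor chain for IL-2 and IL-15, and Sh2d2a and Txk encode signalling proteins of T and NK cells. Each member followed the mean of the other members with an r between 0.846 for Gzmb and 0.973 for Prf1. These correlations rest largely on NK cells against all else, and the sums of a library share its depth.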

How the data were processed

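The data were 4 single-cell libraries (1 per group, 3 tumours pooled in each), so no test between groups was possible. Per the methods, CD45+ cells underwent fixation (22 h) and the probe-based Chromium Flex assay, with the 4 libraries pooled by probe barcode. The authors used Cell Ranger 7.1.0 with the mm10 probe set, required a minimum number of detected genes per cell with mitochondrial and ribosomal reads under set limits, and dropped mitochondrial and ribosomal genes. The files deposited by the authors hold unnormalised UMI counts of each gene in each cell, and cell classes are the deposited annotation. Probes read only part of a transcript.

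UMIs were summed per class and library and divided by the total UMIs of those cells (CPM). Intervals are exact at 95% (Poisson for sums, Clopper-Pearson for shares, conditional for ratios) and cover counting error only. A count of 0 was set to 3 counts. Genes needed 20 UMIs in the pair of libraries, and a difference was counted from 2-fold. Shares at equal depth used cells thinned to 1500 UMIs. The genes described, the gene lists and the markers were chosen with earlier results of these data known. Named genes were all members, up to 5 per list and comparison with the largest difference, and the 5 genes most correlated with the members. Itgam, Mki67, C1qa and Lyz2 in the Gzmc split were named after their values were seen. Ctsw had no RefSeq promoter entry. Scripts used Python 3.11.15, numpy 2.4.6, pandas 2.3.3, scipy 1.17.1, biopython 1.88 and scanpy 1.11.5, and the ratio and interval code was tested on simulated counts. Alternatives covered size factors, UMI minimum, detected genes, NK definition, deep cells and doublets.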

Additional observations from a re-analysis of the deposited data

How the results depend on the processing

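No paired analysis was possible because each group had 1 library. Leaving out a replicate could not be done for the same reason. Directions of the summed members held under every alternative run. In the order IRF3/7, COX2i and COX2i + 5-AZA against CTRL and COX2i + 5-AZA against COX2i, the log2 ratio over all cells moved beyond its counting interval to 8.37 (first), 6.45 (COX2i + 5-AZA against CTRL) and 3.44 (last) with median-of-ratios size factors, to 8.67 (first), 3.21 (second) and 3.10 (last) with only cells above 2000 detected genes, and to 2.86 (second) and 6.12 (COX2i + 5-AZA against CTRL) without the 5% deepest cells. Within NK cells, in the order IRF3/7 against COX2i, COX2i + 5-AZA against COX2i and IRF3/7 against COX2i + 5-AZA, it moved to 0.68, 0.39 and 0.29 with size factors, to 0.46, 0.28 and 0.18 above 2000 genes, to 0.47 and 0.28 (first 2) without NK cells with a T cell gene UMI, to 0.44 (first) and 0.15 (last) without the deepest cells, to 0.18 (last) with only cells with an NK receptor UMI, and to 0.22 (last) without doublets called by Scrublet. That caller marked 1, 10, 1 and 0 cells, at most 0.158% of a library, and cannot be taken to have worked. All 10 marked in IRF3/7 were NK cells.

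Without the NK cells with most UMIs of a member, an alternative added after the data were seen that left out 4, 8, 6 and 6 cells, the ratios over all cells were 9.19, 3.42, 7.33 and 3.91, and within NK cells the first 2 were 0.91 and 0.70. Members at least 2-fold higher in COX2i + 5-AZA against COX2i then numbered 6. This alternative picked cells by the members' own counts and took 6 of 50 NK cells in COX2i but 6 of 437 in COX2i + 5-AZA. The share of all genes was worked out anew only for the UMI minimum, so it is not known for this and the next counts. In IRF3/7 against COX2i + 5-AZA the 2 higher members became 1 above 2000 genes, with an NK receptor UMI, and without the top cells, and 0 without the deepest cells, and the 1 lower member became 0 above 2000 genes. Gzmd in that comparison turned from −0.14 to 0.065 above 2000 genes, 0.034 without T cell gene UMIs, 0.093 without the deepest cells and 0.081 without the top cells.

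The share of member UMIs held by NK cells, in the order CTRL, IRF3/7, COX2i and COX2i + 5-AZA, moved to 78.6%, 94.1% and 94.6% (not COX2i) above 2000 genes, to 82.2%, 84.5% and 84.1% (not CTRL) without NK cells with a T cell gene UMI, to 95.1%, 94.3% and 94.3% (not CTRL) with only NK cells with a receptor UMI, to 94.8% in COX2i + 5-AZA without the deepest cells, and to 63.4%, 95.02%, 91.3% and 94.996% without the top cells. The causes were not tested. With 11 NK cells in CTRL and 50 in COX2i, levels in these libraries rest on few cells, and Ifng there on 3 and 33 UMIs.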
